A study of Nicotiana tabacum with 78 samples.

Results

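Topped roots of the PMT2 line were compared with topped roots of TN90, a cultivar of burley tobacco (Nicotiana tabacum). PMT2 is a transgenic TN90 line in which genes for putrescine N-methyltransferase (PMT) are silenced by RNA interference (RNAi) from a constitutive promoter, that is, a promoter not confined to a single tissue. The activity of the construct in roots and leaves was not measured here. TN90 is the untransformed parent and carries no construct. Plants of both groups were greenhouse grown and topped, that is, their flower heads were removed at flowering, and the tissue was taken after topping. The other groups mentioned are untopped roots and topped and untopped leaves of the same 2 lines, and topped roots of PMT1 and PMT3, which are 2 further PMT RNAi lines in TN90. Each is 1 transgenic line, so that the effect of silencing and anything else that sets the line apart from TN90 cannot be told apart.

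The values are mean RPKM (reads per kilobase of gene model, scaled to the mapped reads of the library) over the libraries of a group, 1 value per gene and group. The deposited table holds 2075 genes, which the authors had selected in at least 1 of their root comparisons by a p-value of at most 0.05 and a difference of at least 2-fold. Of these, 2019 reached 1 RPKM in PMT2 or TN90 topped roots and were compared, and 56 did not. The gene with the lowest value kept had 1.02 RPKM in the higher of the 2 groups, and the highest left out had 0.990 RPKM. The log2 ratio is log2 of (PMT2 + 0.1 RPKM) over (TN90 + 0.1 RPKM), which understates the difference of genes near 0. The table holds no value of a single library, so no gene has a standard deviation or a p-value, and a gene was counted as higher or lower where the 2 means were at least 2-fold apart.

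For topped roots the labels give 5 samples of PMT2 and 5 of TN90, while the authors' library table lists 6 libraries for PMT2 and 5 for TN90, with 26646998 to 62427516 reads each. One PMT2 library had the highest values of the root libraries, with 95.89% of its reads mapped and 98.05% of the mapped reads in gene models. The 39 other root libraries of the series had 75.62% to 88.13% mapped and 69.03% to 97.27% in gene models. The 37 leaf libraries had medians of 95.02% and 98.4%. Among the 6 PMT2 libraries a Dixon outlier test did not flag it on either measure (gap over range 0.592 and 0.247, critical value 0.625). With this library, 86.6 ± 5.13% of reads mapped in PMT2 and 82.5 ± 3.95% in TN90 (SD, n = 6 and 5), a difference of 4.06 percentage points (two-sided exact permutation test, p = 0.177, adjusted over 3 library measures 0.532). Without it, the difference in mapped reads was 2.19 points. Of mapped reads, 87.2 ± 7.79% in PMT2 and 83.96 ± 4.39% in TN90 lay in gene models (exact permutation p = 0.450, adjusted 0.675). The log2 read count differed by -0.08 (exact permutation p = 0.766, adjusted 0.766). None of these 3 permutation p-values reached 0.05. The libraries carry no plant number in the table, so the p-values measure the spread between libraries alone.

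Nuclear photosynthesis genes mark leaf tissue, and 12 of them were in the table. Their ratios were below 0 for 10 and above 0 for 2, and none of the 12 was 2-fold apart. In TN90 leaves 8 of the 12 were at least 10 times higher than in TN90 roots. Those 8 summed to 36.7 RPKM in PMT2 topped roots and 52.0 RPKM in TN90 topped roots, against 4185 RPKM in PMT2 topped leaves. All 8 had ratios below 0, with log2 ratios of -0.93 to -0.15. The other 4, which did not reach that 10-fold leaf level, had 8.51 to 55.1 RPKM in PMT2 and 7.57 to 68.3 RPKM in TN90 topped roots. The labels also conflict in places: the tissue tag reads leaf for 1 of the 5 PMT2 and 3 of the 5 TN90 topped root samples whose titles say root, and 2 of the 5 PMT2 plants carry the opposite treatment in their leaf sample. Descriptions of TN90 samples name PMT1, although the titles of these samples say TN90, and the groups here follow the titles. Whether these labels touched the deposited means was not tested.

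Nicotine is made in tobacco roots and carried to the leaves, and topping is known to raise its synthesis. Its pyrrolidine ring comes from ornithine: ornithine decarboxylase makes putrescine, PMT methylates it, and N-methylputrescine oxidase (MPO, an amine oxidase) oxidises the product. Its pyridine ring comes from aspartate by aspartate oxidase, quinolinate synthase and quinolinate phosphoribosyltransferase, and the reductase A622 and the berberine bridge enzyme-like (BBL) oxidases act at the final steps. Spermidine synthase also uses putrescine, to make the polyamine spermidine, and is the enzyme family from which PMT arose. Anatabine, a related alkaloid, draws both of its rings from the pyridine branch.

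Of the 2019 genes, 245 (12.1%) were at least 2-fold apart between PMT2 and TN90 topped roots, 104 (5.15%) higher and 141 (6.98%) lower in PMT2. The authors' own test of this comparison, which also required a p-value of at most 0.05, passed fewer genes. Which of the 245 passed it is not shown here. The median log2 ratio was 0.11, the lower and upper quartiles were -0.33 and 0.37, and the 5th and 95th percentiles -1.29 and 1.04. Relative to that median, 84 genes were higher and 166 lower. At least 4-fold higher were 43 genes, and 44 were at least 4-fold lower. In whole roots, fewer cells of a type and less RNA per cell cannot be told apart. Of the 245 genes, 55 belong to one of the 33 gene lists described here, 78 have an annotation but no list, and 112 have neither a Swiss-Prot nor a tomato match. Genes with no match made up 51.9% of the higher and 41.1% of the lower genes, and 24.7% of all genes compared.

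**Figure D1:**
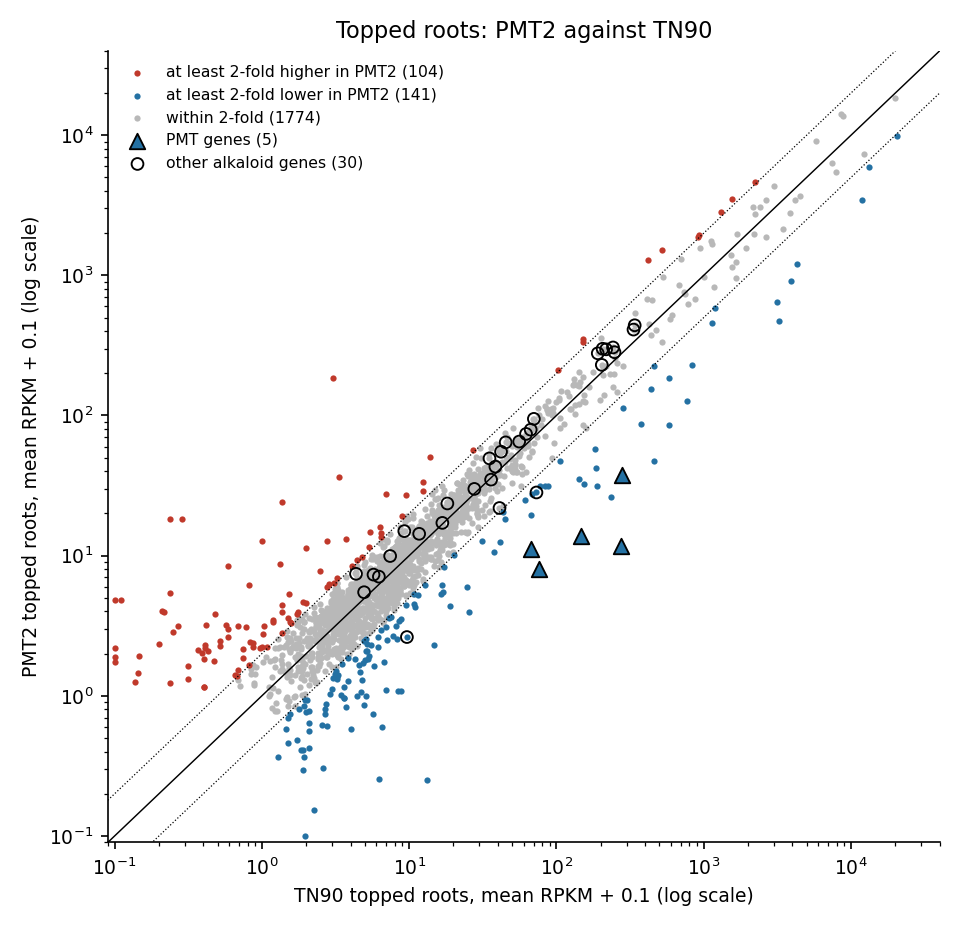
Mean RPKM + 0.1 of 2019 genes in PMT2 topped roots (vertical, log scale) and TN90 topped roots (horizontal, log scale), with the line of equality and dotted lines at 2-fold. The 5 PMT genes (triangles) lie far below the lower dotted line, and 28 of the 30 other alkaloid genes (open circles) lie between the dotted lines.

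All 5 PMT genes were lower in PMT2 than in TN90 topped roots, and 4 of them were among the 12 lowest ratios of genes with at least 5 RPKM. PMT commits putrescine to nicotine. NITAB068133 had 11.6 RPKM in PMT2 and 276 RPKM in TN90, which is 23.7-fold lower in PMT2. NITAB068134 had 13.8 RPKM in PMT2 and 147 RPKM in TN90, and NITAB020972 had 7.90 RPKM in PMT2 and 75.8 RPKM in TN90, log2 ratios of -3.40 and -3.24. NITAB020971, the PMT gene with the most transcript left in PMT2, had 37.7 RPKM in PMT2 and 276 RPKM in TN90. NITAB068130 had 11.1 RPKM in PMT2 and 67.5 RPKM in TN90, a log2 ratio of -2.59. Summed over the 5 genes, PMT2 topped roots held 82.0 RPKM and TN90 topped roots 842 RPKM, so that 9.74% of the TN90 level was left. In the other silenced lines the sum was 53.9 RPKM in PMT1 and 86.9 RPKM in PMT3 topped roots. The 5 genes are near-identical copies, and how reads were split among them was not tested.

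In roots that had not been topped, the 5 PMT genes summed to 36.8 RPKM in PMT2 and 90.7 RPKM in TN90, or 40.6% of the TN90 level, and 4 of the 5 were at least 2-fold lower, where 8.93% of all genes were. Topped roots held 2.23 times the PMT sum of untopped roots in PMT2, and 9.28 times in TN90. The gene next to NITAB020972 by identifier, NITAB020973, named here after its value was seen and matched only to a putative WD-repeat protein of tomato, had 85.8 RPKM in PMT2 and 583 RPKM in TN90 topped roots. Like the PMT genes it was close to absent from leaves, at 0.176 RPKM in PMT2 and 0.265 RPKM in TN90 topped leaves.

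NITAB068133 behaved differently in leaves, where the other PMT genes were under 1 RPKM in both lines. It had 5.95 RPKM in PMT2 and 0.137 RPKM in TN90 topped leaves, 25.5-fold higher in PMT2. Untopped leaves gave 8.10 RPKM in PMT2 and 0.227 RPKM in TN90, 25.1-fold higher, where 9.41% of all genes were at least 2-fold higher. The leaf level of this gene in PMT2 was thus close to its level in untopped PMT2 roots, 8.10 RPKM. It was above TN90 in leaves of the other silenced lines too, with 3.47 RPKM in PMT1 and 3.28 RPKM in PMT3 topped leaves.

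Of the 3 spermidine synthase genes, 2 were also lower in PMT2. NITAB026467 had 2.53 RPKM in PMT2 and 9.56 RPKM in TN90 topped roots, a log2 ratio of -1.88. NITAB055952 had 28.1 RPKM in PMT2 and 73.1 RPKM in TN90, a log2 ratio of -1.37. NITAB041017 had 21.8 RPKM in PMT2 and 40.9 RPKM in TN90 and stayed within 2-fold, at a log2 ratio of -0.91 (-1.02 relative to the median of all genes). In topped leaves, where 7.89% of all genes were at least 2-fold lower, all 3 were: NITAB055952 had 1.88 RPKM in PMT2 and 8.63 RPKM in TN90. In untopped roots none of the 3 was 2-fold apart, with a median log2 ratio of -0.53. In PMT1 topped roots NITAB055952 had 34.3 RPKM, and in PMT3 topped roots 18.2 RPKM.

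The other 27 alkaloid genes stayed within 2-fold, and 26 of them had a ratio above 0. Their median log2 ratio was 0.34, with a range of -0.05 to 0.77, so that the highest was 1.70-fold higher in PMT2, and 25 of the 27 lay above the median of all genes. On the pyrrolidine side, the ornithine decarboxylase gene NITAB023946 had 79.1 RPKM in PMT2 and 66.8 RPKM in TN90, a log2 ratio of 0.24. The probable MPO genes lie downstream of PMT, and NITAB041830, the highest of these 3, had 64.2 RPKM in PMT2 and 45.1 RPKM in TN90, a log2 ratio of 0.51. The polyamine transporter gene NITAB002823 had 7.22 RPKM in PMT2 and 5.63 RPKM in TN90.

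On the pyridine side, the aspartate oxidase, quinolinate synthase and quinolinate phosphoribosyltransferase genes had over 200 RPKM in PMT2 and stayed within 2-fold of TN90. The aspartate oxidase genes NITAB045325 and NITAB079852 had 278 and 306 RPKM in PMT2, against 191 and 242 RPKM in TN90. The quinolinate synthase genes NITAB063722 and NITAB074182 had 283 and 230 RPKM in PMT2, against 248 and 203 RPKM in TN90. The quinolinate phosphoribosyltransferase gene NITAB041007 was the most abundant of the 35 alkaloid genes in PMT2, with 440 RPKM there and 340 RPKM in TN90. The asparaginase genes, whose enzyme yields aspartate, were lower in level: NITAB023723 had 14.2 RPKM in PMT2 and 11.6 RPKM in TN90, and NITAB013732 had 17.0 RPKM in PMT2 and 16.7 RPKM in TN90. S-adenosylmethionine synthase supplies the methyl group that PMT uses, and its gene NITAB038231 had 410 RPKM in PMT2 and 333 RPKM in TN90.

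The genes of the final steps also stayed within 2-fold. The A622 genes NITAB013664 and NITAB026459 had 299 and 296 RPKM in PMT2, against 206 and 217 RPKM in TN90, log2 ratios of 0.54 and 0.45. Of 4 BBL genes, NITAB049634 had the largest ratio, with 94.5 RPKM in PMT2 and 70.2 RPKM in TN90. NITAB072154, with 34.8 RPKM in PMT2 and 35.9 RPKM in TN90, was the gene of the 27 whose ratio was below 0. Among 6 cytochrome P450 genes proposed as alkaloid candidates, NITAB006704 (7.32 RPKM in PMT2, 4.26 RPKM in TN90) and NITAB053665 (14.9 RPKM in PMT2, 9.17 RPKM in TN90) had the largest ratios, 0.77 and 0.69.

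**Figure D2:**
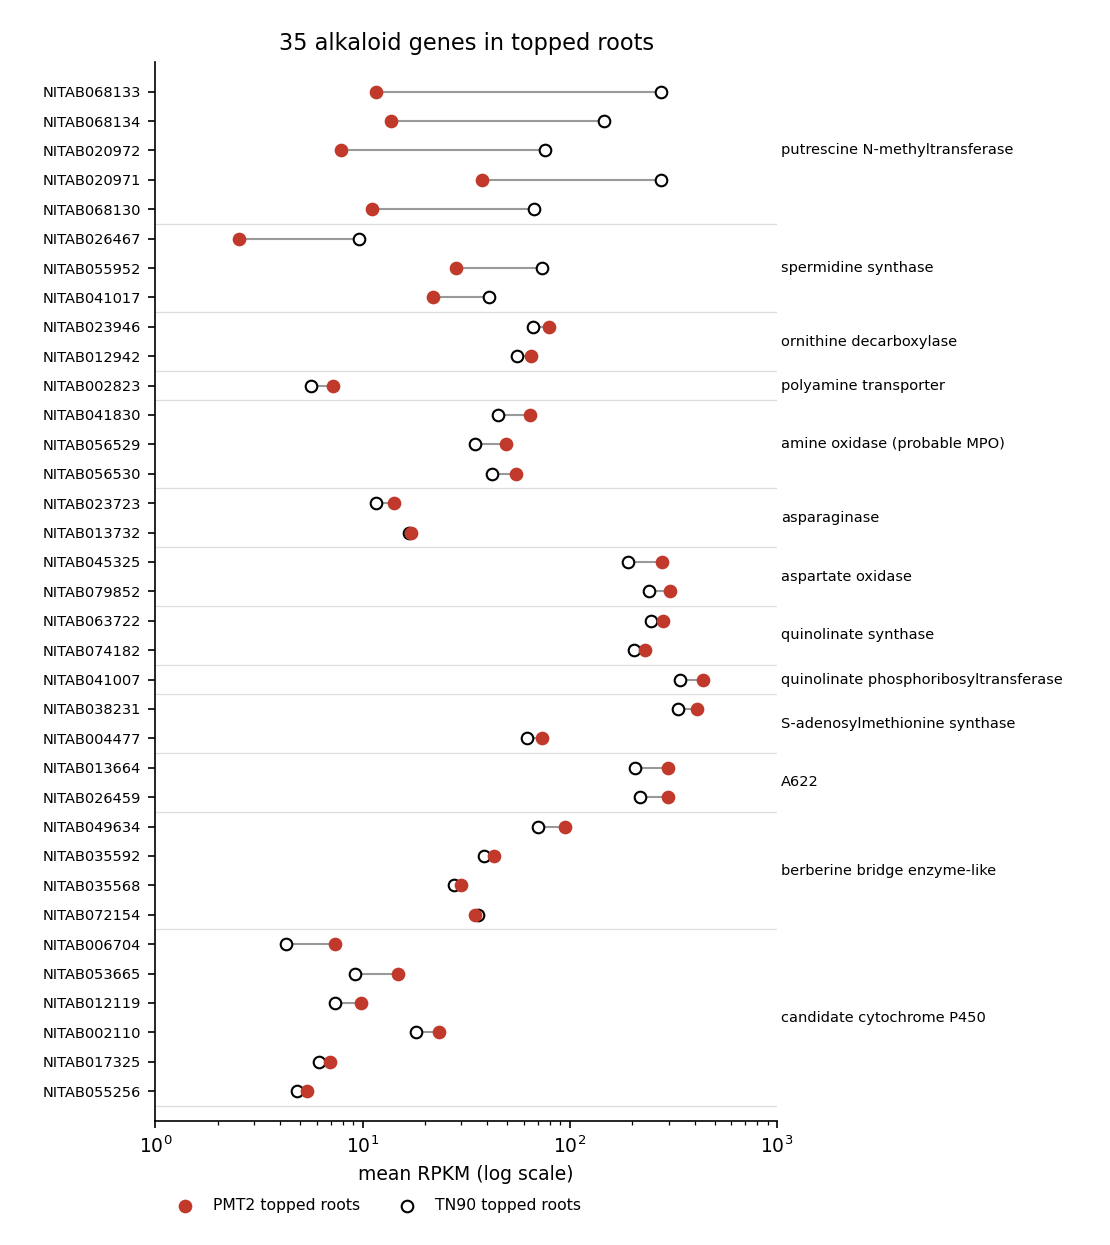
Mean RPKM (log scale) of the 35 alkaloid genes in PMT2 (filled) and TN90 (open) topped roots, grouped by enzyme family. The PMT and spermidine synthase genes lie lower in PMT2, and the remaining 27 genes lie close together in the 2 lines.

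The same 27 genes differed more between the lines in roots of untopped plants, where 20 of them were at least 2-fold higher in PMT2 than in TN90 and none was lower, with a median log2 ratio of 1.34. In untopped roots, however, 39.7% of all genes compared were at least 2-fold higher in PMT2, and their median log2 ratio was 0.73. Topped over untopped roots gave a median of 2.45-fold for the 27 genes in PMT2 and 4.79-fold in TN90, against medians over all genes compared of 1.10-fold in PMT2 and 1.90-fold in TN90. A622, for example, had 299 RPKM in topped and 77.6 RPKM in untopped PMT2 roots (NITAB013664), and 206 RPKM in topped and 19.1 RPKM in untopped TN90 roots. The comparison of untopped roots shares no library with that of topped roots.

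Genes of water deficit and abscisic acid, the hormone of drought and seed maturation, were lower in PMT2 topped roots. Of 36 genes compared, 7 were at least 2-fold lower and none higher, and the median log2 ratio was -0.53. Over all genes compared, 6.98% were lower. The 2 genes matched to TAS14, a tomato protein induced by abscisic acid and salt, had the most transcript: NITAB098393 had 26.2 RPKM in PMT2 and 234 RPKM in TN90, and NITAB061183 had 86.9 RPKM in PMT2 and 373 RPKM in TN90, log2 ratios of -3.15 and -2.10. In PMT1 and PMT3 topped roots, NITAB098393 had 148 and 136 RPKM, and NITAB061183 had 247 and 380 RPKM.

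Dehydrins and late embryogenesis abundant (LEA) proteins, which protect cells as they dry, made up the other 5. NITAB060787, matched to dehydrin DHN1, had 27.6 RPKM in PMT2 and 68.2 RPKM in TN90, and NITAB030410, matched to dehydrin Rab15, had 3.54 RPKM in PMT2 and 7.45 RPKM in TN90. The LEA genes NITAB021680, NITAB071526 and NITAB075572 were low, with 0.386, 1.38 and 2.24 RPKM in PMT2 and 1.64, 4.52 and 5.06 RPKM in TN90. With a pseudocount of 1 RPKM, NITAB021680, NITAB075572 and NITAB030410 were no longer 2-fold apart, which left 4 genes of the list, against 102 of the 141 lower genes overall. Outside the list, and chosen after their values were seen, both genes matched to galactinol synthase 2, an enzyme of the raffinose sugars that build up in drying tissue, were lower as well: NITAB060801 had 1.18 RPKM in PMT2 and 3.75 RPKM in TN90, and NITAB098257 had 0.908 RPKM in PMT2 and 3.36 RPKM in TN90.

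These 7 dehydration genes took opposite directions in other groups of the same lines. In untopped roots all 7 were at least 2-fold lower in PMT2, where 8.93% of all genes were, and in untopped leaves 6 of the 7 were lower, where 19.1% of all genes were. In topped leaves 4 of the 7 were at least 2-fold higher in PMT2 and none lower, where 14.8% of all genes were higher. NITAB098393 had 82.0 RPKM in PMT2 and 25.9 RPKM in TN90 topped leaves, but 227 RPKM in PMT2 and 482 RPKM in TN90 untopped leaves. NITAB061183 likewise had 144 RPKM in PMT2 and 29.9999 RPKM in TN90 topped leaves, but 217 RPKM in PMT2 and 728 RPKM in TN90 untopped leaves. PMT2 plants whose root and leaf samples carry opposite treatment labels occur among both the topped and the untopped root samples. They bear on the root and the leaf columns of PMT2 alike, and their part in this was not tested. Heat shock genes were at a median log2 ratio of -0.17 in topped roots. Of these 34 genes 1 was higher and 2 lower, where 5.15% of all genes were higher and 6.98% lower.

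**Figure D3:**
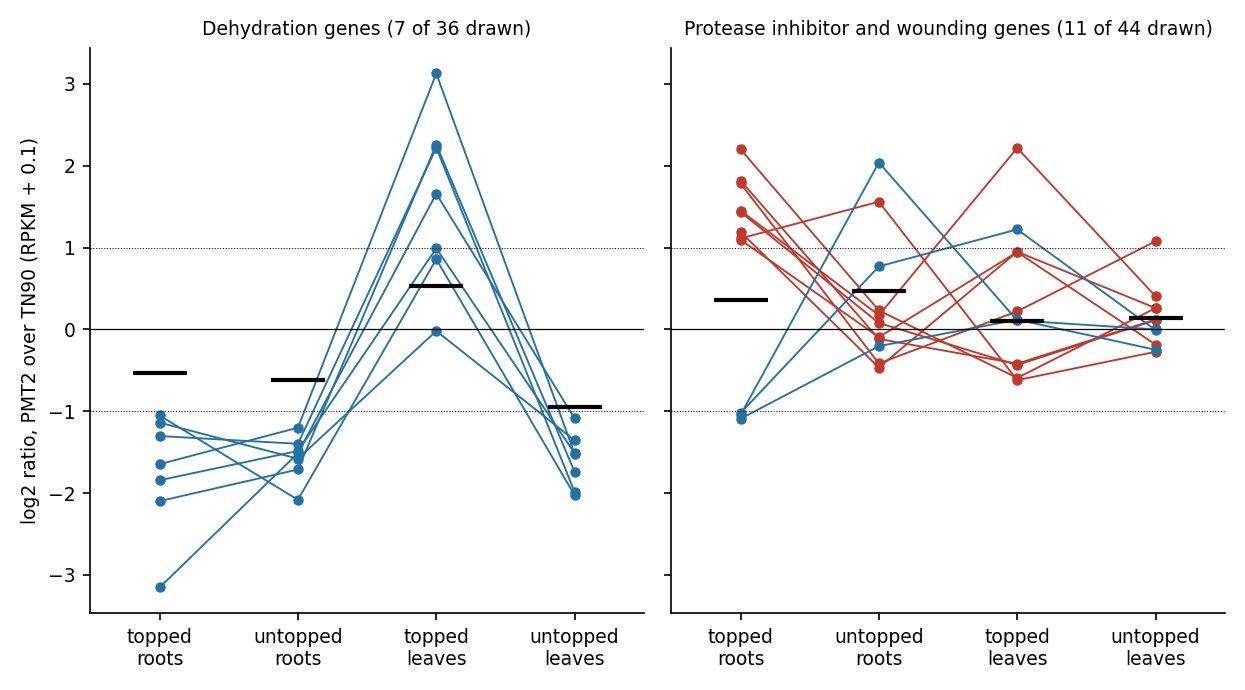
Log2 ratio of PMT2 over TN90 in 4 pairs of groups for the genes at least 2-fold higher (red) or lower (blue) in topped roots, left for the dehydration list and right for the protease inhibitor and wounding list. Black bars are the medians of the whole lists, and dotted lines mark 2-fold; the 7 dehydration genes lie below 0 in 3 pairs, while 6 of them lie above 0 in topped leaves.

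Protease inhibitors and polyphenol oxidases, which plants make against chewing insects and after wounding, had more higher than lower genes in PMT2 topped roots. Of 44 genes compared, 8 were at least 2-fold higher and 3 lower, a median log2 ratio of 0.36, where 5.15% of all genes were higher and 6.98% lower. With a pseudocount of 1 RPKM the counts were 6 higher and none lower. NITAB034145, matched to a Kunitz trypsin inhibitor, had 12.6 RPKM in PMT2 and 2.66 RPKM in TN90, a log2 ratio of 2.20. NITAB075366, matched to proteinase inhibitor I-B, had 5.19 RPKM in PMT2 and 1.44 RPKM in TN90. NITAB018010, matched to an ethylene-responsive proteinase inhibitor, had 14.7 RPKM in PMT2 and 5.29 RPKM in TN90.

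Polyphenol oxidase turns phenols to the quinones that brown cut tissue, and 3 of the 7 genes matched to it were at least 2-fold higher in PMT2 and none lower. NITAB052514 had 13.1 RPKM in PMT2 and 3.65 RPKM in TN90, NITAB001898 had 33.6 RPKM in PMT2 and 12.4 RPKM in TN90, and NITAB042159 had 14.5 RPKM in PMT2 and 6.30 RPKM in TN90. The 3 values in PMT1 topped roots were 5.57, 20.8 and 8.28 RPKM, and in PMT3 topped roots 4.76, 17.5 and 6.08 RPKM, in the same gene order. In untopped roots NITAB001898 had 5.01 RPKM in PMT2 and 4.74 RPKM in TN90. Of the 8 higher genes of the list, 1 was at least 2-fold higher in PMT2 untopped roots, while of the 43 list genes compared there 12 were higher and none lower, with a median log2 ratio of 0.47, where 39.7% of all genes were higher. Among 45 pathogenesis-related and defensin genes, 5 (11.1%) were higher and none lower in topped roots, where 5.15% of all genes were higher and 6.98% lower. The median log2 ratio of these 45 genes was 0.13, against 0.11 over all genes. The 5 include the defensin gene NITAB030550 (7.69 RPKM in PMT2, 2.37 RPKM in TN90) and the osmotin-like gene NITAB027199 (3.36 RPKM in PMT2, 1.09 RPKM in TN90), and the other 3 match beta-glucanases. None of 17 jasmonate genes, which act in the hormone pathway that induces protease inhibitors, was 2-fold apart, where 12.1% of all genes were. The median log2 ratio of the jasmonate genes was 0.19.

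Among genes with at least 5 RPKM in either group, 7 of the 12 highest ratios belonged to genes with no match. NITAB002304, with no match, and NITAB002303, matched to the proline-rich protein DC2.15 of carrot, carry adjoining identifiers and near-equal values, 18.1 RPKM each in PMT2 and 0.139 and 0.186 RPKM in TN90, which is 76.0-fold and 63.7-fold higher in PMT2. In PMT1 they had 20.02 and 19.999 RPKM, and in PMT3 14.4 and 14.5 RPKM. NITAB036511, matched to trichome birefringence-like 15 by Swiss-Prot and to a VQ motif protein of tomato, had 185 RPKM in PMT2 and 2.94 RPKM in TN90, with 1.05 RPKM in PMT1 and 57.1 RPKM in PMT3. In topped roots it was thus high in 2 of the 3 silenced lines and low in PMT1 and TN90. In other groups TN90 had more of it, with 12.3 RPKM in untopped roots and 19.8 RPKM in topped leaves. PMT2 had 125 RPKM in untopped roots and 32.1 RPKM in topped leaves.

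A block of neighbouring identifiers, NITAB084977, NITAB084982 and NITAB084984, none of them annotated, had 36.1, 23.95 and 8.34 RPKM in PMT2 and 3.26, 1.27 and 0.486 RPKM in TN90. PMT1 topped roots had 33.7, 5.97 and 3.51 RPKM, and PMT3 topped roots 1.32, 0.318 and 0.555 RPKM, in the same gene order. In untopped roots these 3 had 5.10, 1.82 and 1.29 RPKM in PMT2 and 2.70, 1.18 and 0.709 RPKM in TN90. Besides NITAB034145, the rest of the 12 highest ratios among genes with at least 5 RPKM were those of NITAB045393, matched to a DnaJ chaperone (12.7 RPKM in PMT2, 0.896 RPKM in TN90), of NITAB036318, matched to cysteine synthase (11.2 RPKM in PMT2, 1.91 RPKM in TN90), and of the unannotated genes NITAB032129, NITAB089016 and NITAB036366. NITAB032129 had 5.29 RPKM in PMT2 and 0.137 RPKM in TN90, but only 0.0634 RPKM in PMT1 and 0.0828 RPKM in PMT3. NITAB036366 had 8.68 RPKM in PMT2 and 1.24 RPKM in TN90 topped roots but was a leaf transcript in both lines, with 634 RPKM in PMT2 and 1013 RPKM in TN90 topped leaves.

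Among the 12 lowest ratios of genes with at least 5 RPKM, and outside the PMT and dehydration genes, NITAB042152, matched to a CACTA transposon protein, had 0.151 RPKM in PMT2 and 13.1 RPKM in TN90, 52.5-fold lower in PMT2. It was not low in the other silenced lines, with 22.6 RPKM in PMT1 and 20.3 RPKM in PMT3. NITAB080944, matched to a HAD-superfamily hydrolase, had 0.154 RPKM in PMT2 and 6.10 RPKM in TN90, and here PMT1 had 0.00518 RPKM and PMT3 2.164 RPKM. NITAB001022, a non-specific lipid-transfer protein gene, had 0.4996 RPKM in PMT2 and 6.41 RPKM in TN90 topped roots, but 0.298 RPKM in PMT2 and 0.186 RPKM in TN90 untopped roots, so that of these 4 values the topped TN90 value stood alone. NITAB024152 (0.640 RPKM in PMT2, 5.56 RPKM in TN90), NITAB089025 (0.983 RPKM in PMT2, 8.75 RPKM in TN90) and NITAB097088 (0.975 RPKM in PMT2, 8.29 RPKM in TN90) were also among the 12 lowest. NITAB097088 had 7.55 RPKM in PMT2 and 7.00 RPKM in TN90 untopped roots.

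Both genes matched to the calcium-binding protein CML31 were lower in PMT2, and are named here after their values were seen. Their tomato match is to a regulator of gene silencing, a calmodulin-like protein known in tobacco to suppress RNA silencing. NITAB084934 had 1.01 RPKM in PMT2 and 6.84 RPKM in TN90, and NITAB031302 had 0.903 RPKM in PMT2 and 5.03 RPKM in TN90. In PMT1 the pair had 7.24 and 4.75 RPKM, and in PMT3 3.22 and 1.35 RPKM.

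A set of genes differed from TN90 in every tissue and treatment of PMT2. Of the 2019 genes with at least 1 RPKM in topped roots, 24 were at least 2-fold higher in PMT2 in all 4 comparisons (topped roots, untopped roots, topped leaves and untopped leaves), and 8 were at least 2-fold lower. No minimum was set for the other groups, and some of these genes were under 1 RPKM in both lines in leaves. NITAB002304 and NITAB002303 were of the first kind, with 17.9 and 18.5 RPKM in PMT2 and 0.140 and 0.166 RPKM in TN90 untopped roots. So were the neighbouring genes NITAB094562 and NITAB094563, with 27.2 and 18.9 RPKM in PMT2 and 9.35 and 8.88 RPKM in TN90 topped roots. NITAB084273 had 50.5 RPKM in PMT2 and 13.7 RPKM in TN90 topped roots, and 6.42 RPKM in PMT2 and 0.451 RPKM in TN90 topped leaves. NITAB050091, matched to UDP-glucose 6-dehydrogenase 3, an enzyme of cell wall sugars, had 3.87 RPKM in PMT2 and 0.116 RPKM in TN90 topped roots. In untopped leaves it was near 0 in both lines, with 0.338 RPKM in PMT2 and 0.0369 RPKM in TN90. NITAB042152, NITAB080944, NITAB089025 and NITAB024152 were of the second kind. With a pseudocount of 1 RPKM, which weighs on genes near 0, the counts were 6 higher and 3 lower.

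**Figure D4:**
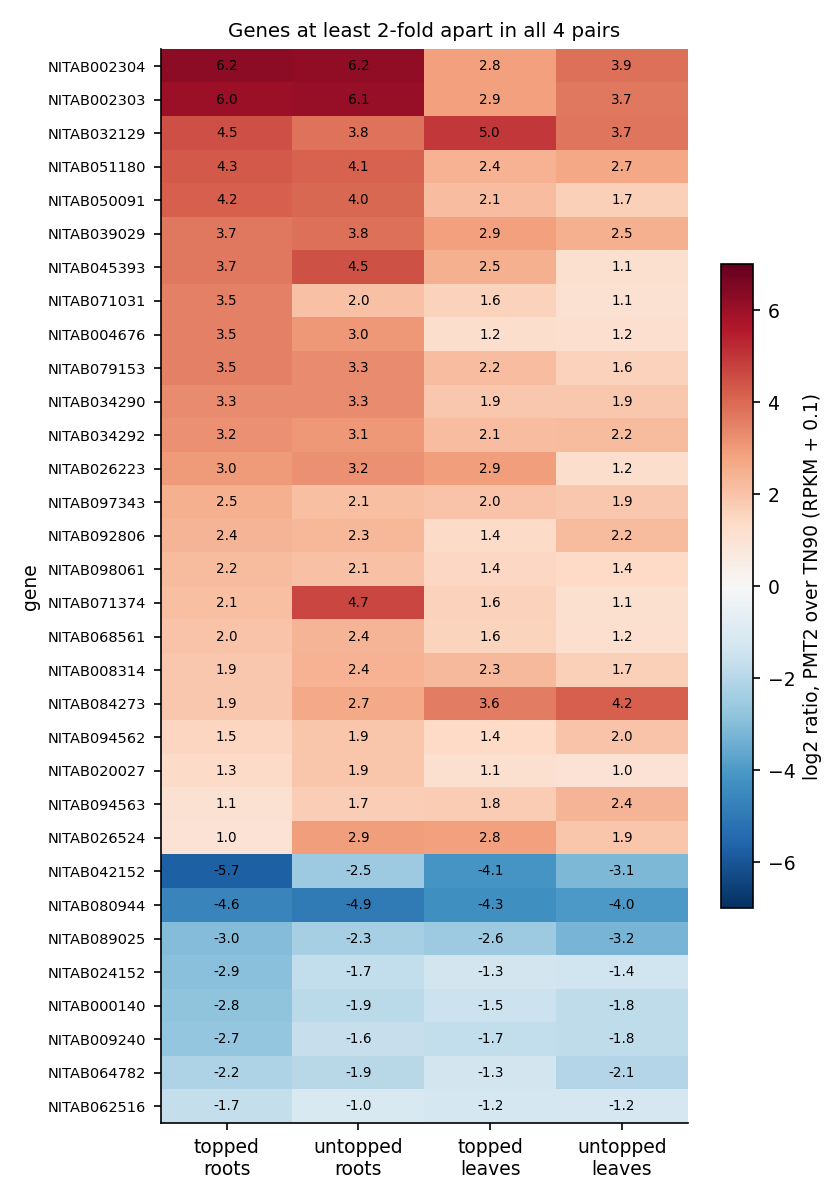
Log2 ratio of PMT2 over TN90 (colour and number) in topped roots, untopped roots, topped leaves and untopped leaves for the 24 genes at least 2-fold higher and the 8 at least 2-fold lower in all 4 pairs. Ratios in roots reach 6.2 for NITAB002304, and the lowest are those of NITAB042152 and NITAB080944.

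More broadly, 89 of the 104 higher genes reached 1 RPKM in untopped roots, and 45 of those (50.6%) were at least 2-fold higher there too, against 40.1% of all genes measured in both. In topped leaves the count was 19 of 50 (38.0%, against 14.8% of all genes), and in untopped leaves 16 of 44 (36.4%, against 9.28%). Others of these genes were at least 2-fold lower: 13 in untopped roots (14.6%, against 7.84% of all genes) and 10 in topped leaves (20.0%, against 7.83%). In untopped leaves 4 were lower (9.09%, against 19.1%). The median log2 ratio of the higher genes in topped leaves was 0.021, against 0.018 over all genes. Of the 141 lower genes, 43 of the 129 measured in untopped roots (33.3%) were lower there too, against 7.84% of all genes. In topped leaves 24 of 78 (30.8%, against 7.83%) and in untopped leaves 31 of 88 (35.2%, against 19.1%) were lower. Of the lower genes, 24 were at least 2-fold higher in untopped roots (18.6%, against 40.1% of all genes). In topped leaves 14 were higher (17.9%, against 14.8%), and in untopped leaves 5 (5.68%, against 9.28%). Roots and leaves come from the same plants, so the leaf columns are other libraries but not other plants.

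Of 46 genes with at least 1000 RPKM in either group, 7 were higher and 9 lower in PMT2, 34.8% in all, against 12.1% of all genes, and 10 of these 16 have no match. The share was 23.2% of 99 genes from 100 to 1000 RPKM, 7.04% of 1279 genes from 5 to 100 RPKM and 19.5% of 595 genes under 5 RPKM, and did not follow the level in order. The 9 lower genes summed to 23475 RPKM in PMT2 and 62359 RPKM in TN90, the 7 higher genes to 17510.3 RPKM in PMT2 and 7869 RPKM in TN90. RPKM is a share of the mapped reads, so these few genes bear on the scale of the others.

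The largest lower genes were NITAB093099, with 9856 RPKM in PMT2 and 20350.4 RPKM in TN90, NITAB051711, with 3467 RPKM in PMT2 and 11823 RPKM in TN90, and NITAB018472, with 5885 RPKM in PMT2 and 13262 RPKM in TN90. NITAB056274 had 1199 RPKM in PMT2 and 4273 RPKM in TN90, and NITAB000512 had 907 RPKM in PMT2 and 3941 RPKM in TN90. In the other silenced lines, NITAB051711 had 7816 RPKM in PMT1 and 3283 RPKM in PMT3. TN90 topped roots stood above TN90 untopped roots in all 5, as for NITAB051711 with 11823 RPKM in topped and 3219 RPKM in untopped TN90 roots, against 3467 RPKM in topped and 3106 RPKM in untopped PMT2 roots. NITAB071867, matched in part to a receptor homology protein, had 46.98 RPKM in PMT2 and 456 RPKM in TN90 topped roots. Its neighbour NITAB071868 had 471 RPKM in PMT2 and 3247 RPKM in TN90, and 290 and 1363 RPKM were the values of this pair in PMT1. In PMT3 topped roots NITAB071867 had 29.98 RPKM, so that its low level was not particular to PMT2.

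The largest higher genes were NITAB095090 (4605 RPKM in PMT2, 2230.4 RPKM in TN90), NITAB093170 (3486 RPKM in PMT2, 1563 RPKM in TN90), NITAB054890 (2808 RPKM in PMT2, 1301 RPKM in TN90), NITAB092409 (1950 RPKM in PMT2, 922 RPKM in TN90) and NITAB086746 (1506 RPKM in PMT2, 520.0 RPKM in TN90). Of these 5, 4 have Swiss-Prot matches, to a glucanase, a lipid kinase, phenylalanine ammonia-lyase and Ycf2 of the chloroplast, and NITAB092409 has none. The match of NITAB054890 to phenylalanine ammonia-lyase is uncertain, since its tomato match is to a class II aaRS and biotin synthetase protein. The 5 genes shared a pattern: each was lower in topped than in untopped TN90 roots, and each was lower in PMT2 than in TN90 untopped roots. NITAB095090 had 4020 RPKM in PMT2 and 8848 RPKM in TN90 untopped roots. Relative to the median of all genes, NITAB095090, NITAB054890 and NITAB092409 were just short of 2-fold. Among 26 genes matched to proteins that organelles encode, 3 were higher and 4 lower, 26.9% in all against 12.1% of all genes, with a median log2 ratio of -0.20.

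Growth-related lists, by contrast, were within 2-fold in topped roots. None of 47 histone genes, 22 microtubule and cell cycle genes, 71 wall remodelling genes or 16 aquaporin genes was 2-fold apart, where 12.1% of all genes were. Their median log2 ratios were 0.26, 0.23, 0.18 and 0.24, against 0.11 over all genes. As examples, the expansin gene NITAB058193 and the pectinesterase gene NITAB060731, both of enzymes or proteins that loosen or modify the wall, had 19.8 and 31.2 RPKM in PMT2 and 10.5 and 16.6 RPKM in TN90. In untopped roots, 46 of 48 histone genes and 60 of 71 wall remodelling genes were at least 2-fold higher in PMT2, with medians of 1.63 and 1.57, where 39.7% of all genes were and their median was 0.73. Within PMT2 none of the 47 histone genes compared was at least 2-fold higher in topped than in untopped roots, against 12.8% of all genes, and within TN90 all 47 were, against 47.3% of all genes.

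The counts of the remaining lists in topped roots stand beside 5.15% higher and 6.98% lower over all genes compared. Of 51 secondary cell wall genes 2 were higher and none lower: NITAB036511 and the cellulose synthase gene NITAB039029 (1.81 RPKM in PMT2, 0.0458 RPKM in TN90), which was also 2-fold apart in all 4 comparisons. Among 48 peroxidase and redox genes 4 were lower and none higher, a share near the 6.98% of all genes that were lower. The 4 include the glutathione S-transferase gene NITAB099216 (5.23 RPKM in PMT2, 16.3 RPKM in TN90) and 2 genes for transmembrane ascorbate ferrireductases, NITAB032560 (3.32 RPKM in PMT2, 8.40 RPKM in TN90) and NITAB084958 (1.22 RPKM in PMT2, 3.11 RPKM in TN90). Transcription factors had 1 higher gene of 70 and none lower, and ethylene genes 1 of 32, which was the proteinase inhibitor gene NITAB018010 given above. Of 62 membrane transporter genes 1 was higher and 2 lower. NITAB015460, the higher one, was listed at 0 in TN90 topped roots and at 1.65 RPKM in PMT2. Of 17 auxin genes 1 was lower: NITAB016019, matched to IAA15, a repressor of auxin responses, had 0.0543 RPKM in PMT2 and 2.17 RPKM in TN90. The phenylpropanoid list had 1 gene higher and 1 lower of 16, the lipid-transfer list 1 and 2 of 27, and hypoxia genes none of 8. The higher phenylpropanoid gene was NITAB054890, whose Swiss-Prot and tomato matches differ.

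**Figure D5:**
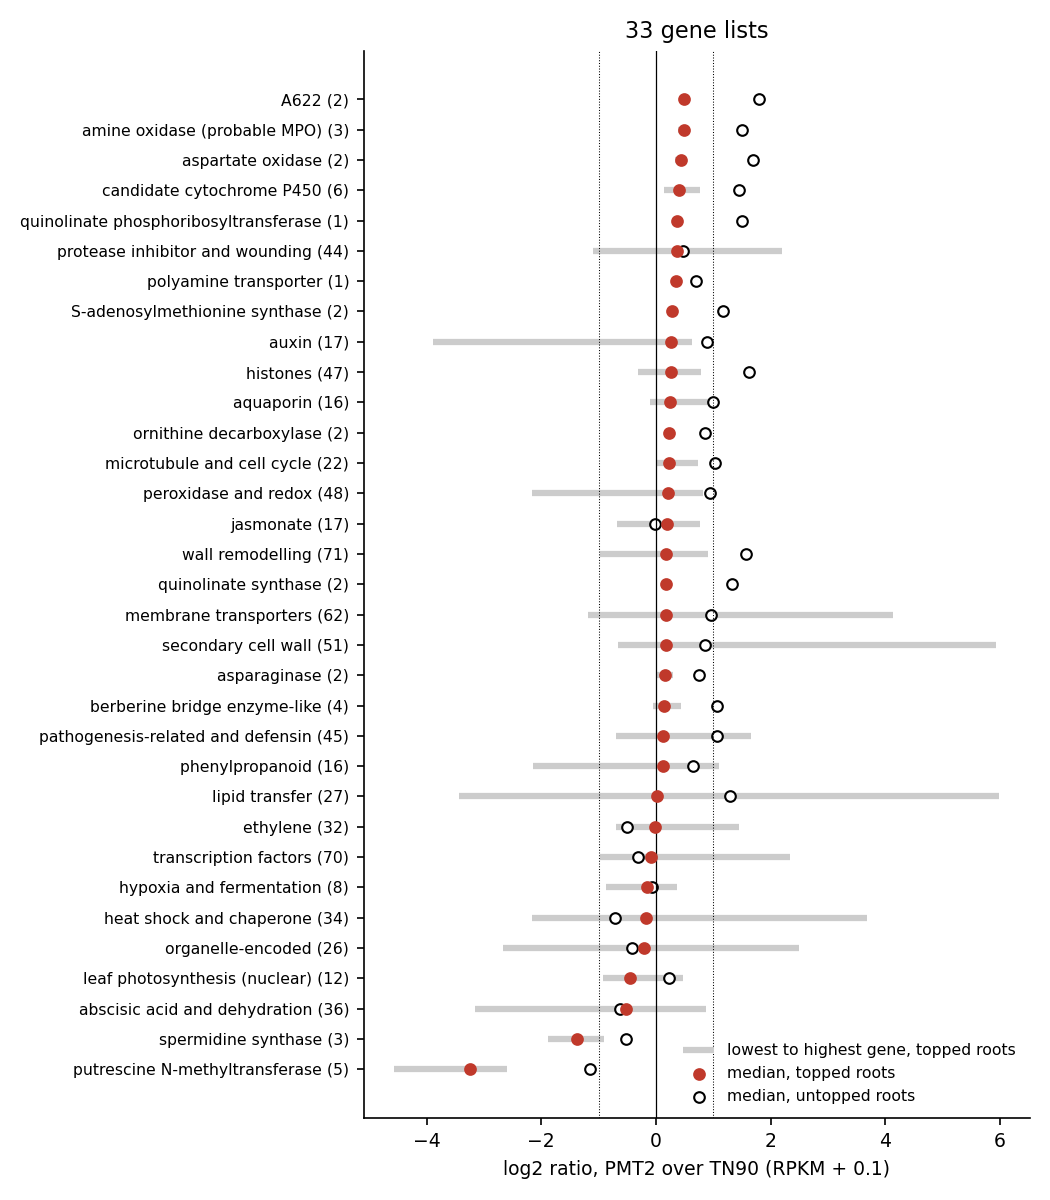
Median log2 ratio of PMT2 over TN90 in topped roots (red) and untopped roots (open) for 33 gene lists, with the number of genes compared in brackets and grey bars from the lowest to the highest gene in topped roots. The PMT list has the lowest topped-root median, -3.24, followed by spermidine synthase, -1.37, and no other list passes the dotted lines at 2-fold in topped roots.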

How the data were processed

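RNA of roots and leaves was sequenced as paired reads from stranded total RNA libraries. Per the study's methods, the authors mapped reads to an updated N. tabacum genome in CLC Genomics Workbench 11.0.1 (RNA-Seq Analysis 2.16, similarity and length fraction 0.95, up to 10 hits per read), computed RPKM, and tested genes with edgeR's exact test. The deposited table holds mean RPKM per group, and the deposited library table holds read counts and the percent of reads mapped, for libraries named only by line, tissue and treatment.

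Here groups followed the sample labels (1 sample with conflicting labels was in no group). Ratios used a pseudocount of 0.1 RPKM and a minimum of 1 RPKM in either group, and the threshold was 2-fold. With means alone, no gene was tested. Library measures were compared by two-sided exact permutation tests over 462 splits, with Benjamini-Hochberg adjustment over 3 measures. Calculations used Python 3.11.15 and were tested on simulated data. Named genes were the 12 highest and 12 lowest ratios with at least 5 RPKM, the 5 largest RPKM differences each way, 35 alkaloid genes, and up to 4 per list. The 33 lists (13 by identifier, 20 by annotation) and the members were chosen with earlier results of these data known. None of the 2075 identifiers matched the RefSeq gene table used here, so no coordinates or sequences are given. Alternatives were other pseudocounts, minima, thresholds and a centred scale, and leaving out each library.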

Additional observations from a re-analysis of the deposited data

How the results depend on the processing

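The number of genes at least 2-fold apart in topped roots, 245, stayed within 1.5 times of itself with pseudocounts of 0.01 (254) and 1 RPKM (171), with no minimum (256) and centred on the median (250). It was 129 (44 higher, 85 lower) with a minimum of 5 RPKM, 558 (247 and 311) at 1.5-fold, 125 (52 and 73) at 3-fold and 87 (43 and 44) at 4-fold, and a pseudocount of 1 RPKM left 69 higher genes. The 33 list medians kept their side of 2-fold in all 165 alternative values. Of 143 named genes, 25 changed side of 2-fold under some alternative and none that was 2-fold apart changed direction.

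With a pseudocount of 1 RPKM, an alternative chosen after seeing the data, the higher genes that were also higher elsewhere numbered 28 in untopped roots, 12 in topped leaves and 8 in untopped leaves, and the lower genes 23, 13 and 16. Of the dehydration list 4 genes were lower, and of the protease inhibitor and wounding list 6 were higher and none lower. Those apart in all 4 comparisons numbered 6 higher and 3 lower.

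Leaving out each library in turn gave differences in mapped reads of 2.19 to 5.43 points, in reads within gene models of 1.01 to 5.52 points, and in log2 read count of -0.217 to 0.029, which changed sign (0.029 without PMT2 library 4 or 6, 0.014 without TN90 library 2), and none reached the threshold. No paired analysis was possible because neither the group means nor the listed libraries carry a replicate number. With 1 mean per group and 5 or 6 libraries behind it, the error of a single gene's ratio cannot be given.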
